A study of Mus musculus with 4 samples.

Results

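Natural killer (NK) cells were a small population among the CD45-positive cells of B16-F10 melanomas. They were chosen by their messenger RNA counts: at least 2 molecules in sum of the NK receptor genes Ncr1, Klrb1c and Klre1, at most 1 of the T cell receptor complex genes Cd3d, Cd3e and Cd3g, none of Cd8a, Cd8b1 or the macrophage gene Csf1r, and fewer than 10 of the melanoma genes Mlana and Dct. This rule found 102 of 8677 kept cells. The study set tumours that lacked Adar1, an enzyme encoded by Adar that edits double-stranded RNA, against control tumours, both grown from the mouse melanoma line B16-F10 in C57BL/6 mice. Tumour cells were implanted with matrigel and tumours were taken at day 14, digested for 10 min at 37 °C with collagenase P and DNase I, enriched on an Optiprep gradient and selected for CD45 with magnetic beads. In both groups the hosts were C57BL/6 mice, and the deletion belonged to the implanted tumour cells. Each group had 2 libraries, called S1 and S2 for Adar1-null and S3 and S4 for control tumours. They were made with 10x 3′ v2 chemistry, in which unique molecular identifiers (UMIs) count messenger RNA molecules. Whether the 2 libraries of a group are from different animals is not in the labels, so a p-value here covers the spread between libraries only, which may be technical.

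NK cells are innate lymphocytes that kill tumour and infected cells without antigen receptors. Activating receptors such as NKp46 (Ncr1) and NKG2D (Klrk1), which signal through adaptors such as DAP12 (Tyrobp) and the Fc receptor gamma chain (Fcer1g), are balanced by inhibitory receptors for MHC class I, among them the Ly49 (Klra) family, each of whose genes is switched on in only part of the cells. Killing uses perforin and granzymes stored in granules, the transcription factors Eomes and T-bet direct NK cell maturation, and KLRG1 appears on late stages of it. NK cells are known to restrain B16 melanoma, above all its spread to the lung.

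The 102 NK cells were 15 in S1, 35 in S2, 39 in S3 and 13 in S4. They held 111103, 244491, 289923 and 96291 UMIs in the same order, with medians of 6087, 5838, 5897 and 6488 UMIs per cell. Of 628 cells with enough receptor molecules, 118 remained after the line on Cd3 genes, 113 after Cd8 genes, 104 after Csf1r and 102 after the melanoma genes. At the edge of the rule, the 9 cells with a receptor sum of exactly 2 held 1223 CPM (the counts-per-million scale, the UMIs of a gene relative to all UMIs of the cells) of Gzma and 1019 CPM of the macrophage gene C1qa, and the 39 cells with a sum of 1, just outside, held 77.7 and 668 CPM. The 76 cells with a sum of 5 or more held 4464 CPM of Gzma and 33.3 CPM of C1qa. No NK cell shared its barcode with a cell of another library, against 38 shared barcodes among all deposited cells, and 1 NK cell, in S3, had a doublet score over 0.1. Of the NK markers that the rule did not use, Gzma had a UMI in 64.7% of NK cells, Eomes in 42.2% and Prf1 in 27.5%, against 1.73%, 0.0413% and 0.124% of myeloid cells. Eomes was shared with CD8 T cells: of 1125 in the gate used below, 65 held it with Tbx21 and 158 without. At least 5 Gzma UMIs were in few of them, 1 cell with and 22 without 5 UMIs of Gzmc. Prf1 was called in neither direction between NK and CD8 T cells in the test below, so it does not set the NK cells apart from them.

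Markers of other cell types were present in some NK cells and were not spread evenly over them. The 9 alpha-beta T cell markers summed to between 107 and 126 CPM in NK cells, against 4614 to 5595 CPM in a gate of 1125 CD8 T cells. The 12 macrophage markers summed to 558 CPM in S1, 1501 in S2, 362 in S3 and 789 in S4, against 23408 to 53462 CPM in a gate of 2424 myeloid cells with Csf1r, and with Csf1r at 0 by the rule. The 10 dendritic cell markers summed to 864, 323, 638 and 2119 CPM in S1 to S4, against 4032, 5689, 3993 and 1339 CPM in myeloid cells, so in S4 the NK cells lay above the myeloid cells. The S4 value was mostly H2-Ab1 in 1 cell of S4, which held 195 of the library's 201 H2-Ab1 UMIs. The 5 B cell markers summed to 171 CPM in NK cells of S1 and to 4.09, 6.9 and 10.4 CPM in S2 to S4, against 16.4 to 36.6 CPM in myeloid cells. In 8 NK cells (3 in S1, 2 in S2, 2 in S3 and 1 in S4) over 0.2% of UMIs came from markers of another cell type or over 1% from MHC class II genes. The latter were H2-Ab1, H2-Aa, H2-Eb1 and Cd74, and C1qa was among the macrophage markers. Values of these genes without the 8 cells depend on that choice and test nothing. In every comparison with CD8 T cells, values given without the 8 cells also leave out the CD8 T cells over the same limits. Between genotypes, values without these 8 cells are given where a call depends on the cells or a list median turns or moves by over 1.5 times. Genes of the T cell receptor constant regions were not analysed here.

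Adar itself was barely detected in NK cells, at 9.0, 12.3, 6.90 and 10.4 CPM in S1 to S4, which are 1, 3, 2 and 1 UMIs. Since the deletion was in the tumour cells, this level checks nothing about the labels.

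The share of NK cells did not separate the genotypes. It was 0.761% (exact Clopper-Pearson 95% interval 0.426 to 1.25) in S1, 1.79% (1.25 to 2.48) in S2, 1.99% (1.42 to 2.71) in S3 and 0.467% (0.249 to 0.797) in S4. One library of each group was high and one was low, and both groups overlapped. The means were 1.27% ± 0.727 for Adar1-null and 1.23% ± 1.08 for control (SD, n = 2). The difference of the mean log2 shares, called the log2 ratio below, was 0.28, which weights both libraries of a group on the log scale and so is not the ratio of these means. It had p = 1 in an exact two-sided permutation test over 6 splits, whose smallest possible p is 0.333. Among NK and T cells alone, the NK share was 4.12%, 8.35%, 11.9% and 4.89% in S1 to S4, and the log2 ratio was -0.38 (exact permutation p = 0.667). Without S1, S2, S3 or S4 in turn, the ratio of shares among all kept cells was 0.89, -0.34, 1.32 and -0.77. Intervals cover counting error only, and shares describe the selected suspension rather than the tumour.

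**Figure D1:**
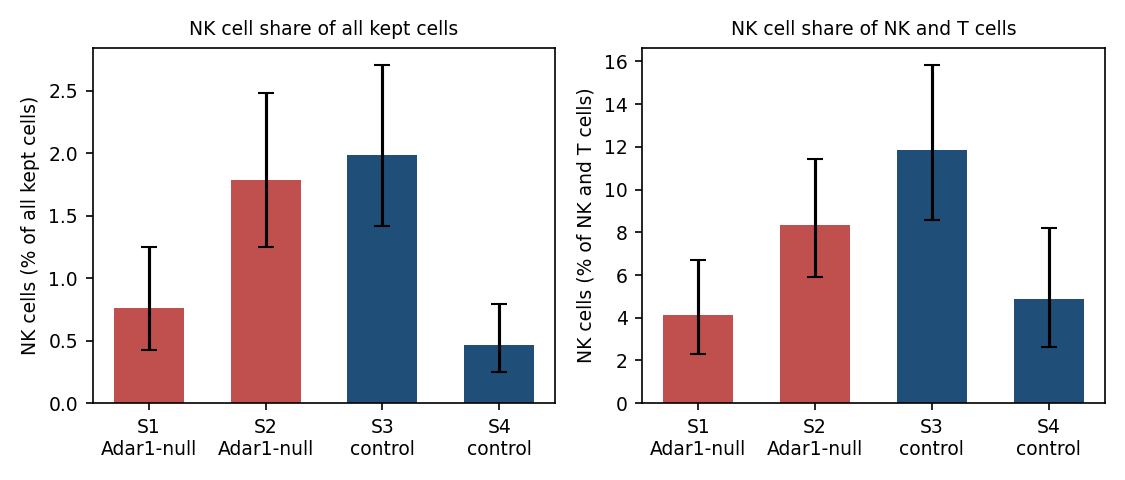
NK cell share per library, in percent of all kept cells (left) and of NK and T cells (right), with exact 95% binomial intervals; red bars are Adar1-null and blue bars control libraries. S2 and S3, from different groups, held the highest shares on both scales (1.79% and 1.99% of all kept cells).

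NK cells differed from CD8 T cells of the same libraries in receptors, granzymes, chemokine receptors and checkpoint genes. The CD8 T cells, gated on Cd3 and Cd8 genes, are the killer lymphocytes most like them, and had library medians of 7886 to 9797.5 UMIs per cell. In a test on summed counts with the library as a block (edgeR, quasi-likelihood F test, Benjamini-Hochberg adjusted over 7801 genes, threshold 0.05), 365 genes were higher in NK cells, 4.68% of those tested, and 293 were lower, 3.76%. Of these, 299 and 276 lay on the same side in all 4 libraries. The genes of the rule and of the gate are left out of these counts. The NK cells were selected on receptor genes that are switched on with many of the genes below, so these differences describe the selected cells and do not test their identity. In all, 111 called genes were followed through 10 other settings, and 69 of them kept their call in each setting that tested them. Those named below are among the 69 unless stated, except Cd28, which was called but not followed through the other settings.

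Receptor and adaptor genes were among those higher in NK cells. Of 18 tested genes of activating receptors and adaptors, 9 were higher in NK cells and 2 lower, with a median log2 difference of 1.17, against -0.04 over all genes tested. Fcer1g, the Fc receptor gamma chain, stood at 1215, 2192, 2132 and 2098 CPM in NK cells of S1 to S4 and at 203, 247, 159 and 184 in CD8 T cells. Every NK value lay above every CD8 T value, and the log2 difference was 3.26 ± 0.16 (SE, edgeR adjusted p = 8.0e-16). Tyrobp, the adaptor DAP12, stood at 1431, 2037, 2718 and 2794 CPM against 181, 142, 91.3 and 148, a log2 difference of 4.0 ± 0.45 (edgeR adjusted p = 0.024). The groups lay far apart in every library, but the call was lost without S2 (4.05, adjusted p = 0.108) and without S4 (3.92, adjusted p = 0.114). Fcgr3 (the low-affinity Fc receptor CD16, log2 difference 2.5), Cd244 (the receptor 2B4, 1.94), Slamf7 (1.56) and Sh2d1b1 (the adaptor EAT-2, 4.73) were also higher. Myeloid cells hold Fcer1g, Tyrobp and Fcgr3 at 5138, 3170 and 797 CPM. Without the 8 cells and the CD8 T cells over the same limits, the differences were 3.85, 4.94 and 2.61. Fcer1g in NK cells of S1 to S4 was then at 1048, 1665, 2071 and 2186 CPM. Cd247, the CD3 zeta chain, was lower in NK cells by a log2 difference of -1.40.

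Of 18 tested genes of a list set up for inhibitory receptors, 8 were higher in NK cells and 4 lower, with a median log2 difference of 1.09. Its Klrb1 and Klri members are not all inhibitory, so the count and median do not describe inhibitory receptors alone. The 8 belonged to the Klra, Klrb1 and Klri families and Klrg1, and the 4 were the checkpoint genes Lag3, Havcr2, Pdcd1 and Ctla4. Klrb1f, a member of the NKR-P1 family, stood at 207, 151, 114 and 83.1 CPM in NK cells and between 1.14 and 1.84 in CD8 T cells (log2 difference 6.42 ± 0.36, edgeR adjusted p = 1.0e-26). It had a UMI in 51.0% of NK cells, 1.24% of CD8 T cells and 0.289% of myeloid cells. Klra7, an inhibitory Ly49 receptor, stood at 234, 254, 469 and 187 CPM against 1.55 to 7.37 (5.82 ± 0.26, edgeR adjusted p = 1.9e-29). For both genes every NK library lay above every CD8 T library. Klra4, an activating Ly49 receptor, stood at 234, 233, 445 and 353 CPM against 0 to 5.16 (7.60 ± 0.82, edgeR adjusted p = 0.020), and lost its call without S2 (7.47, adjusted p = 0.130). Klrb1b, Klrb1a, Klra9 and Klra1 were higher by 5.12, 6.0, 5.96 and 4.61. The Ly49 genes are near-identical copies, and reads that fit several of them could have been split or dropped in counting, so the single Klra values are uncertain.

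The Ly49 genes formed a patchwork over the cells. Over 8 Klra genes, 71 of 102 NK cells (69.6%) had a UMI of at least 1: 21 cells had 1 gene, 22 had 2, 15 had 3 and 13 had 4 or more, and 31 had none. By library the share was 80.0% in S1, 57.1% in S2, 76.9% in S3 and 69.2% in S4, so the groups overlapped. With every cell thinned to 3900 UMIs it was 62.7% in NK cells, 5.96% in CD8 T cells and 3.88% in myeloid cells, and unthinned it was 8.62% and 8.09% in the latter types.

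Several checkpoint and co-stimulatory receptors of T cells were lower in NK cells than in CD8 T cells. Pdcd1, which encodes PD-1, was listed at 0, 12.3, 0 and 0 CPM in NK cells of S1 to S4, against 256, 272, 295 and 353 in CD8 T cells (log2 difference -6.11 ± 0.38, edgeR adjusted p = 4.6e-22). Its 3 UMIs lay in 1.96% of NK cells, and 81.9% of CD8 T cells had one. Havcr2 (TIM-3) stood at 0, 4.09, 0 and 10.4 against 56.0 to 104 CPM (-4.87 ± 0.54), and Tnfrsf4 (OX40) at 0, 4.09, 3.45 and 0 against 193 to 289 (-6.28 ± 0.41). Lag3 stood at 18.0, 81.8, 44.8 and 20.8 CPM in NK cells, below the 190 to 281 CPM of CD8 T cells (-2.37 ± 0.23). For all of these genes each NK library lay below each CD8 T library. Ctla4 and Icos were lower by -1.55 and -2.04, and Tox, a transcription factor tied to T cell exhaustion, by -3.25. The co-stimulatory receptor genes Tnfrsf9 and Tnfrsf18 were called in neither direction. Without the 8 cells, Tnfrsf9 was at 497, 440, 422 and 294 CPM in NK cells of S1 to S4, and Tnfrsf18 at 408, 368, 211 and 79.3.

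Several genes of T cell identity were not detectable in NK cells at this depth, whereas the co-stimulatory receptor gene Cd28 was detected, at 108, 98.2, 79.3 and 93.5 CPM in S1 to S4 against 193 to 240 CPM in CD8 T cells (log2 difference -1.25). No NK cell held a UMI of Cd6, Bcl11b, Themis, Cd5 or Sit1, which serve T cell receptor signalling or T lineage commitment, while CD8 T cells held Cd6 at 80.4 to 88.8 CPM and Bcl11b at 65.9 to 78.7. A count of 0 in 102 cells allows a share of up to 2.94% of cells with a UMI. Against a floor of 3 counts over all NK cells (4.04 CPM), these were at least 21.0-, 18.2-, 18.3-, 16.6- and 8.29-fold lower in NK cells. Gldc, Tff1 and the chemokine receptor gene Cx3cr1 also had no NK UMI and were at least 14.7-, 12.9- and 5.94-fold lower. Of the 293 genes called lower, 32 had no UMI in any NK cell.

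**Figure D2:**
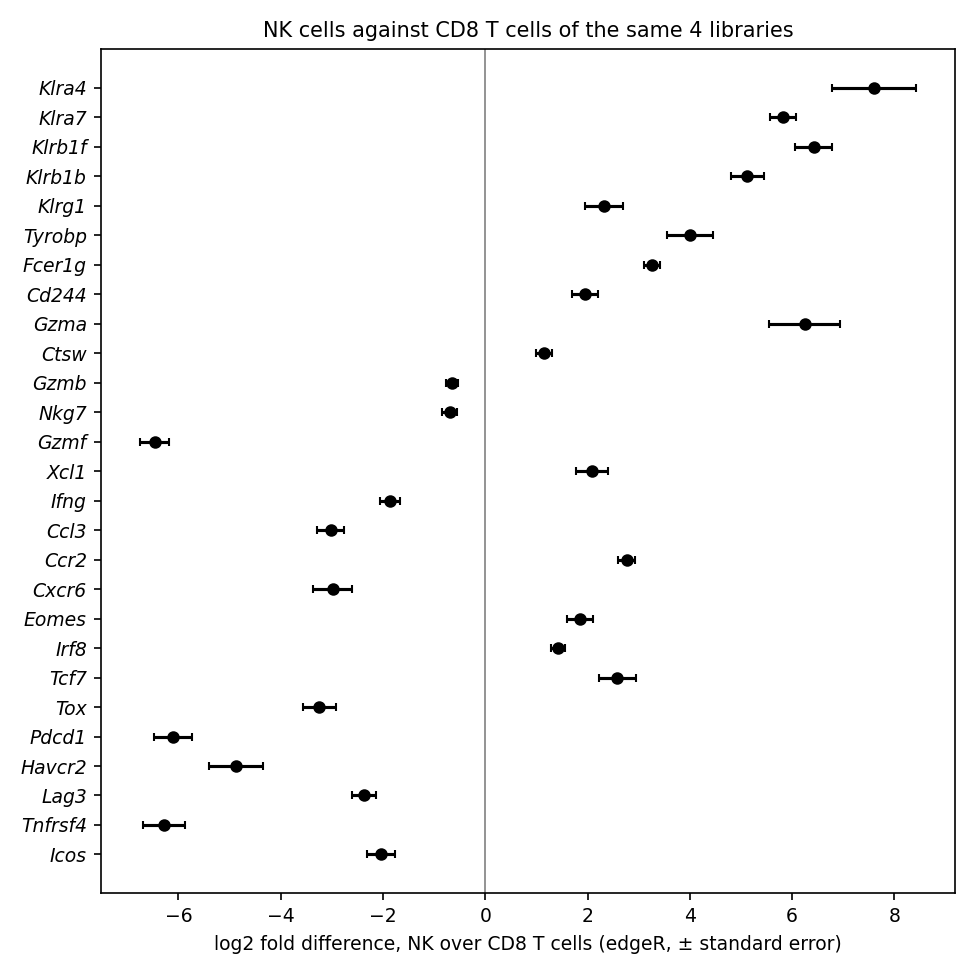
Log2 fold difference of NK over CD8 T cells with its standard error for 27 genes, ordered by role from receptors at the top to checkpoint genes at the bottom; filled points passed the test (edgeR adjusted p under 0.05). Ly49 and NKR-P1 receptors, Gzma and adaptors lie to the right (Klra4 at 7.60), and Gzmf, Pdcd1 and Tnfrsf4 lie farthest left, at -6.46, -6.11 and -6.28.

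Granzymes split between the killer cell types. Of 23 tested genes of cytotoxic granules and death ligands, 5 were higher in NK cells and 4 lower, with a median log2 difference of 0.18. Of the 5 higher, only 1, Ctsw, kept its call in every setting, as did all 4 lower ones. Gzma, the trypsin-like granzyme A, stood at 2646, 3869, 4570 and 4185 CPM in NK cells and at 51.2, 108, 18.2 and 44.6 in CD8 T cells. The 2 types lay more than an order of magnitude apart in every library, with a log2 difference of 6.25 ± 0.69 (edgeR adjusted p = 0.025). The call was lost without S1 (6.47, adjusted p = 0.154), without S2 (6.67, 0.107) and without S4 (6.13, 0.137). Gzmb, granzyme B, stood at 1053, 2016, 2249 and 1755 CPM in NK cells against 1668, 3431, 3397 and 2659, lower within each library (-0.65 ± 0.11, edgeR adjusted p = 7.4e-06). Gzmf was low in NK cells, at 9.0, 0, 3.45 and 51.9 CPM against 307, 114, 812 and 3373 (-6.46 ± 0.29). Nkg7, a granule membrane protein, was lower (-0.70 ± 0.14), Gzmk was lower (-3.99), and Ctsw, the lysosomal protease cathepsin W, was higher (1.15 ± 0.15). Gzmc to Gzmg are close copies of one another, so reads may have been split among them.

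Cytokine, homing and transcription factor genes also differed. Xcl1, the chemokine that attracts cross-presenting dendritic cells, stood at 1206, 1407, 1245 and 312 CPM in NK cells against 463, 243, 196 and 114 (log2 difference 2.08 ± 0.31, edgeR adjusted p = 0.012). S4 was low in both cell types, and NK cells were above CD8 T cells in each library. Ifng (interferon gamma) was lower in NK cells, at 63.0, 151, 89.7 and 51.9 CPM against 289, 465, 383 and 185 (-1.87 ± 0.19), as was the chemokine gene Ccl3 (-3.02 ± 0.26). Among homing receptors, Ccr2 (2.76 ± 0.17) was higher, and Cxcr6, a receptor of tissue-resident lymphocytes, was lower (-2.99 ± 0.39). The transcription factor genes Eomes (1.85 ± 0.26), Irf8 (1.41 ± 0.14), Klf2 (1.61) and Tcf7 (2.58 ± 0.36) were higher. Of 11 tested genes of early NK maturation stages, 6 were higher (Kit, Xcl1, Emb, Tcf7, Cd7 and Ctla2a) and 2 lower, Cd27 at -1.34 among them; of 8 tested genes of late stages, 3 were higher, with Klrg1 (2.32) and Irf8 in all settings, and 1 lower. The residency genes Itga1 and Zfp683 had 2 and 0 UMIs in all NK cells.

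Other high-ranking genes were not classical NK receptors. Vegfc, a growth factor for lymphatic vessels, stood at 45.0, 12.3, 20.7 and 51.9 CPM in NK cells and at 0.368, 0, 0 and 0 in CD8 T cells (log2 difference 7.5 ± 0.76, edgeR adjusted p = 2.9e-13), with a UMI in 18.6% of NK cells. Clnk, an adaptor of immunoreceptor signalling (6.56), Atp1b1, a sodium pump subunit (5.74), Emid1 (5.68), Khdc1a (5.29) and Rbpms (5.16) were higher too. Car2, a carbonic anhydrase, stood at 234, 217, 455 and 177 CPM against 0 to 8.11 (6.61 ± 0.80, edgeR adjusted p = 0.026) and had a UMI in 71.6% of NK cells and 2.31% of CD8 T cells. Its call was lost without S2 (6.59, adjusted p = 0.164).

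Cell cycle, immediate-early and interferon-stimulated genes were compared as lists. None of 36 cell cycle genes was higher and 5 were lower, with a median log2 difference of -0.43. Of these 5, only 1, Dut, kept its call in every setting. With cells thinned to 3900 UMIs, 32.4% of NK cells and 52.7% of CD8 T cells held at least 3 UMIs of a set of cell cycle genes (34.3% and 64.0% before thinning), against 10.8% of myeloid cells. Of 18 immediate-early and dissociation genes, 5 were higher, among them Fos (1.04) and Jun (1.08), which tissue digestion is known to induce, and none lower. Of 46 type I interferon-stimulated genes, 7 were higher, of which Ly6e (1.01 ± 0.14) kept its call in every setting, and 2 lower, Ifi27l2a (-1.74 ± 0.17) and Ly6a (-1.13 ± 0.15). The 2 MHC class I genes and the 4 genes of glycolysis and nutrient uptake that were called each lost the call in at least 1 setting.

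Between genotypes, few genes of NK cells passed the test. Gzmc (granzyme C), Klrg1, S100a6 (a calcium-binding protein) and Ctla2a (a cathepsin inhibitor-like protein) were lower in NK cells of Adar1-null tumours, 4 of 2388 genes tested (0.168%). Fth1, Ftl1, Lgmn, C1qa, Ccl9 and the predicted gene Gm10116 were higher, 6 genes (0.251%). At an unadjusted p under 0.05, edgeR counted 170 genes and DESeq2 39, where 119.4 are expected by chance over 2388 genes, and DESeq2 called 3 genes after adjustment. No one of these 10 genes kept its call in every setting tried, so each is given with what it rests on. On GRCm38 (GENCODE M21), Gzmc lies at chr14:56231441-56234656 (minus strand), Klrg1 at chr6:122270596-122282882 (minus), S100a6 at chr3:90612882-90624181 (plus) and Ctla2a at chr13:60934155-60936625 (minus), and each is a protein-coding gene.

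Gzmc is one of the granzymes of activated killer cells. It stood at 3762 and 5432 CPM in Adar1-null NK cells and at 8375 and 11881 in control NK cells. Both control libraries lay above both Adar1-null libraries, with a log2 difference of -1.20 ± 0.20 (edgeR adjusted p = 0.00036). Its UMIs sat in few cells: 1 cell held 1025 of all 5318, and the top 5 and 10 cells held 63.4% and 82.9%. The top 2 cells of each library held 89.5%, 80.7%, 52.4% and 94.8% of its Gzmc UMIs, and with those cells left out the levels were 494, 1177, 4404 and 833 CPM, so the groups overlapped. Gzmc was detected in 6 of 15, 17 of 35, 28 of 39 and 8 of 13 cells, and in 34.8% of CD8 T and 2.85% of myeloid cells. The call was lost without S4 (-0.98, adjusted p = 0.212), with a receptor sum of at least 3 (-1.38, adjusted p = 0.996), with no Cd3 UMI allowed (-1.18, adjusted p = 0.683) and with equal cell numbers (-0.71, adjusted p = 0.978). In CD8 T cells Gzmc was at 448 and 164 CPM in S1 and S2 and at 1159 and 1838 in S3 and S4.

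The upstream sequences of Gzma and Gzmc are shown because the results on cytotoxic genes turn on them and because Runx and T-box factors, to which Runx3, Eomes and T-bet belong, bind short core motifs near NK genes. Each is the 250 bases before the RefSeq start on GRCm38.p6, 5′ to 3′ on the gene's own strand, with matches of the Runx core TGTGGT or its reverse complement ACCACA in capitals. Gzma lies on the minus strand (chr13:113100982-113101231 upstream of it) and holds 1 match, and Gzmc also on the minus strand (chr14:56234658-56234907) and holds 2.
Gzma: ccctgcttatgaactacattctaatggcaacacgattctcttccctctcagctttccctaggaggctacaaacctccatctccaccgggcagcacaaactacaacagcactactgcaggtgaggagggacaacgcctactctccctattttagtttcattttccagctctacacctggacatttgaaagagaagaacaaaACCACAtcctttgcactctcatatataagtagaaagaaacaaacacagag
Gzmc: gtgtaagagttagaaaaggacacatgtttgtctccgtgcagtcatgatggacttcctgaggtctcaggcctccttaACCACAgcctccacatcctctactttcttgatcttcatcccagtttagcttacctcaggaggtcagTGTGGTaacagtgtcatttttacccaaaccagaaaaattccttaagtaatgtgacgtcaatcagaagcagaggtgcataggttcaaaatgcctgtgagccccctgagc
Neither window holds the T-box core TCACAC or GTGTGA. Over all 32851 windows of this length, 14.0% hold the Runx core and 12.3% the T-box core. Among 312 windows of genes higher in NK than CD8 T cells the shares were 11.5% and 12.8%, and among 284 windows of genes lower in NK cells 12.3% and 11.3%. These are letter matches and not binding sites.

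Single cells differed widely in both granzymes. Counting a cell as positive from 5 UMIs, 20 of 102 NK cells held both Gzma and Gzmc, 38 Gzma alone, 20 Gzmc alone and 24 neither. In S1 to S4 the cells with both were 1 of 15, 5 of 35, 12 of 39 and 2 of 13. The median Gzma count per cell was 0 in S1, 6 in S2, 20 in S3 and 12 in S4, at similar depth. Median Gzmc counts were 0, 0, 4 and 2. Both Adar1-null libraries lay below both control libraries on these medians, which rest on 15 and 13 cells in S1 and S4.

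**Figure D3:**
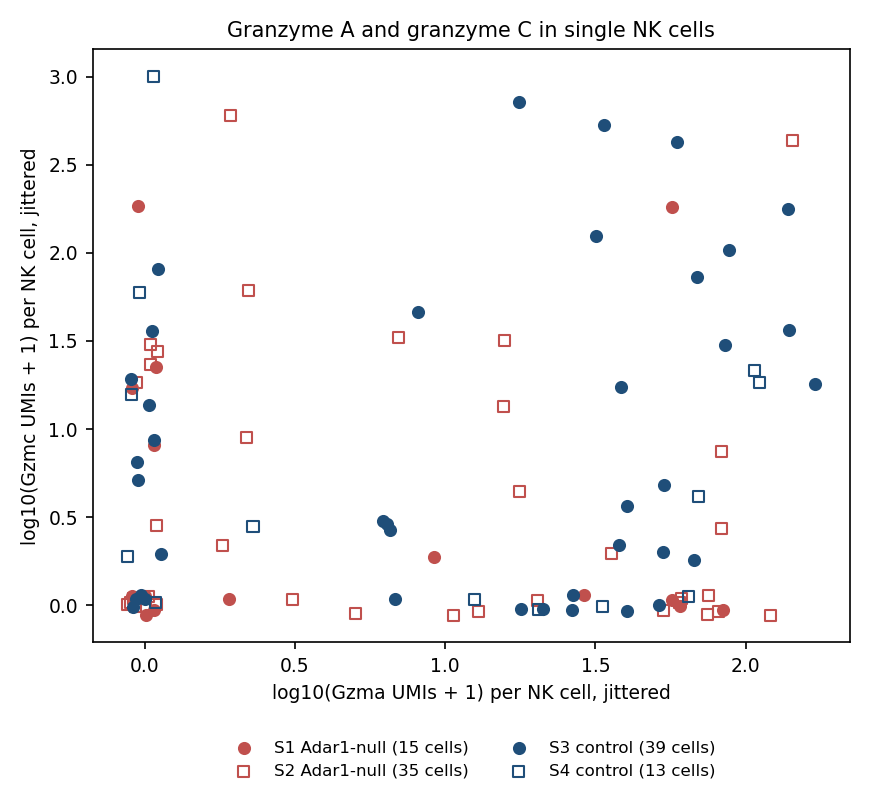
Gzma and Gzmc UMIs in each of the 102 NK cells, on log10(UMIs + 1) axes with a small random shift; red symbols are Adar1-null and blue symbols control cells, filled circles S1 and S3, open squares S2 and S4. A few cells carry most Gzmc (highest 1025 UMIs, in S4), and many cells hold Gzma without Gzmc.

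Klrg1 was low throughout and lower still in Adar1-null tumours. NK cells held 3, 4, 38 and 17 UMIs in S1 to S4, which are 27.0, 16.4, 131 and 177 CPM. Both Adar1-null libraries lay far below both control libraries, with a log2 difference of -2.92 ± 0.54 (edgeR adjusted p = 0.00085). It was detected in 3 of 15 and 2 of 35 Adar1-null cells and in 12 of 39 and 6 of 13 control cells, and in 10.2% of CD8 T and 0.165% of myeloid cells. The groups also stayed apart with the top 2 cells of each library left out (10.8, 0, 90.9 and 82.5 CPM). The call was lost without S2 (-2.48, adjusted p = 0.106), without S3 (-3.15, adjusted p = 0.396) and with DESeq2 (-2.96, adjusted p = 0.315), and it held without the 8 cells (-3.07, adjusted p = 6.8e-05). CD8 T cells held Klrg1 at 18.8, 10.4, 16.7 and 20.2 CPM.

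S100a6 stood at 540 and 348 CPM in Adar1-null NK cells and at 1052 and 1298 in control NK cells. The groups did not overlap, also without the top 2 cells of each library (373, 286, 813 and 1021 CPM), and the log2 difference was -1.48 ± 0.30 (edgeR adjusted p = 0.0038). S100a6 is broadly expressed: it was detected in 10, 24, 36 and 11 NK cells, and myeloid cells held it at 758 to 915 CPM. Its call was lost without S2 (-1.18, adjusted p = 0.273) and with equal cell numbers (-1.27, adjusted p = 0.077). Ctla2a stood at 297 and 569 CPM against 952 and 1111, again without overlap (-1.28 ± 0.30, edgeR adjusted p = 0.028). It is a close copy of Ctla2b, so reads may have been split. The call was lost without S1 (-0.97, adjusted p = 0.544), without S4 (-1.21, adjusted p = 0.076), with DESeq2 (-1.29, adjusted p = 0.293) and in 3 further settings.

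The 6 genes higher in Adar1-null NK cells were all held at higher levels by myeloid cells. Fth1 and Ftl1, the ferritin chains, stood at 5454, 5890, 2408 and 2399 CPM and at 4212, 2871, 1342 and 2025 CPM (log2 differences 1.17 ± 0.21 and 1.02 ± 0.25, edgeR adjusted p = 0.00075 and 0.038). A single cell of S2 held 899 of that library's 1440 Fth1 UMIs. C1qa, a complement chain made by macrophages, stood at 81.0, 311, 24.1 and 31.2 CPM (2.95), Lgmn at 189, 229, 31.0 and 10.4 (2.96), Ccl9 at 108, 102, 13.8 and 31.2 (2.38) and Gm10116 at 180, 164, 51.7 and 41.5 (1.72). Both Adar1-null libraries were above both controls for each. Myeloid cells held C1qa at a mean of 4330 CPM. With the 8 cells left out, Fth1 stood at 5043, 2191, 2234 and 2277 CPM and C1qa at 77.2, 31.8, 14.8 and 34.0, so S1 stayed high and S2 came within or near the controls. C1qa is among the markers by which the 8 cells were chosen, so its fall depends on that choice. Lgmn (143, 45.4, 25.9 and 11.3 CPM) and Gm10116 (121, 95.3, 48.2 and 45.3) still separated the groups. Without the 8 cells, Fth1 was at 0.59 (edgeR adjusted p = 0.744), Ftl1 at 0.84 (0.823) and Gm10116 at 1.05 (0.696), and C1qa, Lgmn and Ccl9 no longer passed the filter on low counts. Over the settings that tested each gene, Gm10116 lost its call in 11 of 13, Ftl1 in 10 of 13 and Ccl9 in 5 of 9. Fth1 lost it in 4 of 13, Lgmn in 2 of 10 and C1qa in 2 of 8.

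Without the 8 cells, 8 of 2127 genes passed the test. The 6 lower ones were Klrg1, S100a6, Ctla2a, Gzmc (-1.15, edgeR adjusted p = 1.9e-05), Dusp2 (-1.53, adjusted p = 0.0019) and Nmi (-2.22, adjusted p = 0.040). Dusp2, a nuclear MAP kinase phosphatase, stood at 369 and 225 CPM against 786 and 457 over all NK cells, and Nmi, an interferon-induced partner of STAT proteins, at 18.0 and 36.8 against 121 and 93.5. With all cells neither passed (edgeR adjusted p = 0.060 and 0.076). The 2 higher ones were Ifi27l2a (3.42, adjusted p = 9.0e-06), an interferon-induced gene, and the MHC class II chaperone gene Cd74 (1.82, adjusted p = 0.0024). Cd74 is among the genes by which the 8 cells were chosen, so its pass is no test.

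**Figure D4:**
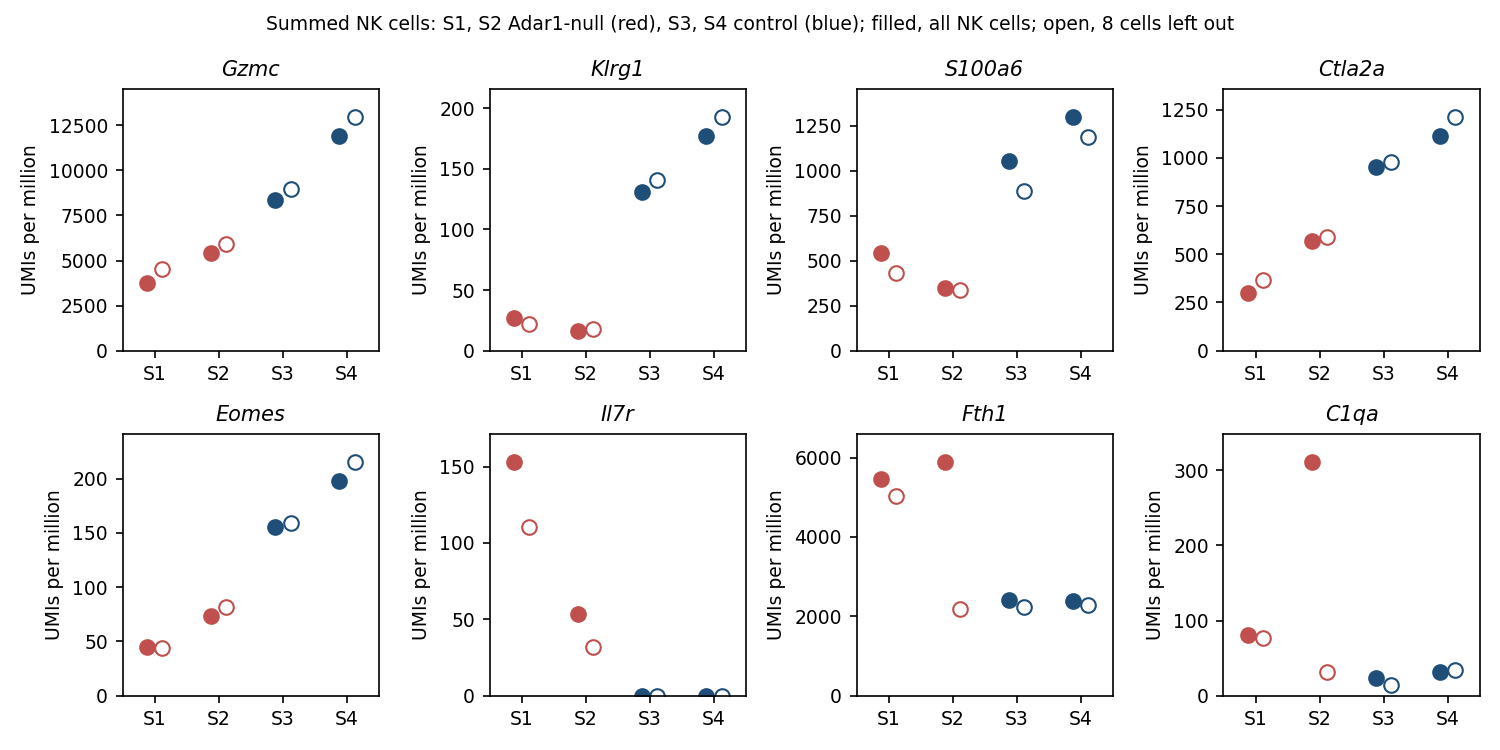
Level of 8 genes in summed NK cells of each library, in CPM, with all NK cells (filled) and with the 8 cells that carry markers of other types left out (open); red is Adar1-null and blue control. Gzmc, Klrg1, S100a6, Ctla2a and Eomes are lower in S1 and S2 either way, whereas without the 8 cells the Fth1 and C1qa values of S2 drop close to those of the control libraries and those of S1 stay above them (Fth1 at 5043, C1qa at 77.2).

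The other cytotoxic genes did not pass the test, and most had lower values in Adar1-null NK cells. Of the 15 tested genes of cytotoxic granules and death ligands, 13 had log2 differences below 0 and 1, Gzmc, passed the test; the median log2 difference was -0.47, against 0.01 over all 2388 genes. In 7 of the 15 both Adar1-null libraries lay below both controls and in none above, where 13.7% of all genes lay below and 21.4% above. Prf1, which encodes perforin, stood at 9.0 and 57.3 CPM against 93.1 and 93.5 (-1.26 ± 0.52, edgeR adjusted p = 0.513). Gzma stood at 2646 and 3869 CPM against 4570 and 4185 (-0.49 ± 0.22, edgeR adjusted p = 0.605), and Gzmb at 1053 and 2016 against 2249 and 1755. In the 14 Adar1-null NK cells with an Il7r UMI, described below, Gzma was at 371 CPM. The 36 other Adar1-null NK cells held it at 4795 CPM, against 4474 in the 52 control NK cells. The median of this list lay between -0.99 and -0.26 with 1 library left out.

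Gzmd, a neighbour of Gzmc, was at 0 in both Adar1-null libraries and at 186 and 3697 CPM in the controls, at least 126-fold lower against a floor of 3 counts over the group (8.44 CPM). Of the 356 Gzmd UMIs of S4, 347 came from 1 cell, so this bound rests mostly on that cell. Its test was far from the threshold (edgeR adjusted p = 0.985).

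Of 15 tested activating receptors and adaptors, 12 had log2 differences below 0 between Adar1-null and control NK cells and none passed the test, with a median log2 difference of -0.34 (-0.57 without the 8 cells). This list includes Ncr1 and Klrb1c, by which the cells were chosen, so the count and median rest in part on the rule. Tyrobp stood at 1431 and 2037 CPM against 2718 and 2794 (-0.73 ± 0.24, edgeR adjusted p = 0.271). Klra8, the Ly49 receptor that binds a cytomegalovirus protein, stood at 171 and 151 against 231 and 405 (-0.98 ± 0.34, edgeR adjusted p = 0.335), and Klra4 at 234 and 233 against 445 and 353 (-0.87). The groups were apart for these 3 genes. Crtam, an adhesion receptor of activated lymphocytes, lay the other way, at 117 and 147 against 41.4 and 41.5 CPM (1.62 ± 0.47, edgeR adjusted p = 0.125). Of 10 tested genes of the list set up for inhibitory receptors, Klrg1 alone passed, and the median was -0.12 (-0.28 without the 8 cells). Klrd1 (CD94), which pairs with both kinds of NKG2 chain, stood at 531 and 671 against 876 and 1205 CPM (-0.84, edgeR adjusted p = 0.335).

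Among 12 tested NK and innate lymphoid transcription factors none passed, and the median of 0.14 turned to -0.02 without the 8 cells. Eomes stood at 45.0 and 73.6 CPM in Adar1-null NK cells and at 155 and 197 in controls, apart but short of the threshold (-1.49 ± 0.41, edgeR adjusted p = 0.096). It was detected in 4 of 15, 11 of 35, 20 of 39 and 8 of 13 cells, and in 19.8% of CD8 T and 0.0413% of myeloid cells. Id2, a repressor needed by innate lymphocytes, stood at 828 and 1162 against 1466 and 1599 (-0.68, edgeR adjusted p = 0.513). Tcf7 (1.01, adjusted p = 0.733) and Zeb2 (1.63, adjusted p = 0.271) lay the other way. Over all NK cells, 15 held UMIs of both Eomes and Tbx21, 28 of Eomes alone, 19 of Tbx21 alone and 40 of neither.

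**Figure D5:**
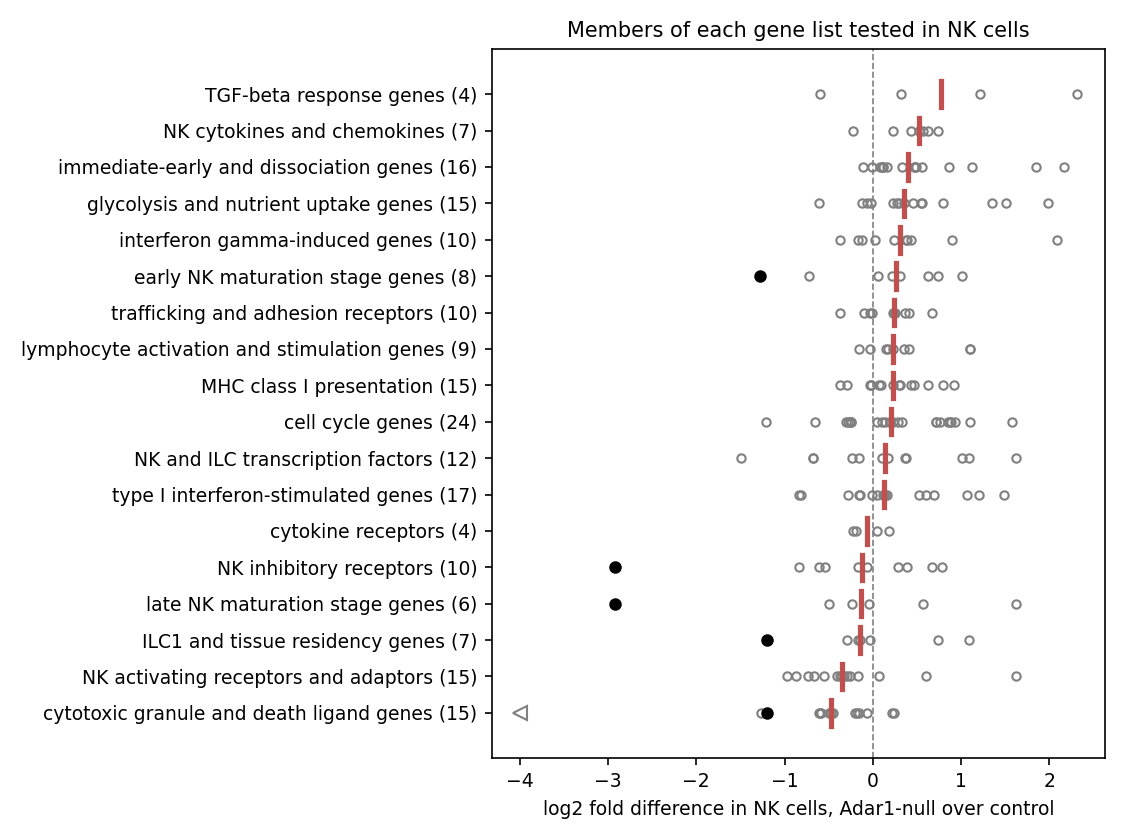
Log2 fold difference in NK cells between Adar1-null and control tumours for the tested members of 18 gene lists (number tested in brackets), ordered by their median (red bar); filled points passed the test and the dashed line is the median of all genes. Cytotoxic genes have the lowest median, -0.47; Gzmd, at 0 in both Adar1-null libraries, is drawn as an arrowhead at the left edge.

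Cytokine, proliferation and metabolic genes mostly had log2 differences above 0, and none passed the test. Of 7 tested cytokine and chemokine genes 6 did so (median 0.52), with Ccl5 at 2754 and 2368 CPM against 1414 and 1900 (0.57, edgeR adjusted p = 0.584) and Ltb (lymphotoxin beta) at 0.74. Of 24 cell cycle genes, 17 were above 0 (median 0.21) and in 8 (of 24) both Adar1-null libraries lay above both controls, in none below, where 21.4% of all genes lay above and 13.7% below. Those with the largest differences serve DNA synthesis: Tyms, thymidylate synthase, stood at 171 and 155 CPM against 55.2 and 41.5 (1.58 ± 0.43, edgeR adjusted p = 0.084), Rrm2 at 108 and 160 against 79.3 and 20.8 (1.10), and the Dut difference was 0.88. Of 15 genes of glycolysis and nutrient uptake, 11 were above 0 (median 0.35), and in 7 (of 15) both Adar1-null libraries lay above both controls, against the same 21.4%. Slc16a3, a lactate exporter (1.98), Pgk1 (1.51) and the glucose transporter gene Slc2a1 (1.35) led them, chosen after their values were seen. Of 16 immediate-early genes 14 were above 0 (median 0.40, and 0.21 without the 8 cells).

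No type I interferon-stimulated gene passed the test with all NK cells and all libraries. Ifi27l2a, at 207 and 331 CPM against 179 and 20.8 (1.07, edgeR adjusted p = 0.923), passed without the 8 cells, without S3 (3.62, adjusted p = 0.000208), without doublet scores over 0.1 (2.75, adjusted p = 0.00019) and with equal cell numbers (4.19, adjusted p = 0.000299). Of 17 tested type I interferon-stimulated genes out of 56 listed, 11 were above 0 and the median of 0.13 turned to -0.30 without S2 and was 0.08 without the 8 cells. Isg15 stood at 72.0 and 209 CPM against 65.5 and 20.8 (1.48 ± 0.47, edgeR adjusted p = 0.271) and passed without S1 (1.86, adjusted p = 0.00699), and Bst2 at 180 and 262 against 114 and 51.9 (1.20 ± 0.37, edgeR adjusted p = 0.179). Epsti1 lay the other way, at 162 and 331 against 393 and 509 CPM (-0.84). S2 held 35 of the 38 Rsad2 UMIs of all NK cells, 26 of them in 1 cell. A set of 10 interferon-induced genes reached 5 UMIs in 33.3% and 40.0% of Adar1-null and 12.8% and 7.69% of control NK cells, and after thinning in 13.3%, 22.9%, 7.69% and 0%. In the 13 cells of S4, a count of 0 allows a share of up to 23.1%. In CD8 T cells the unthinned shares were 58.7%, 85.8%, 48.0% and 23.5%, and in myeloid cells 95.6%, 99.4%, 95.2% and 84.5%. Of 15 MHC class I presentation genes, 10 were above 0 (median 0.23), with H2-Q7, one of several near-identical copies, at 0.80 (edgeR adjusted p = 0.382). Tnfrsf18, which encodes GITR, stood at 351 and 344 CPM against 197 and 72.7 (1.10 ± 0.33, edgeR adjusted p = 0.173).

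Il7r, the interleukin-7 receptor chain that marks helper-like innate lymphocytes, was seen in NK cells of Adar1-null tumours alone in these libraries. It was singled out after its values were seen, so its levels are a description. It held 17, 13, 0 and 0 UMIs in S1 to S4, in 6 of 15, 8 of 35, 0 of 39 and 0 of 13 cells, where a count of 0 allows shares of up to 7.69% and 23.1%, and was at least 10.9-fold higher in Adar1-null against a floor of 3 counts over the control cells (7.77 CPM). CD8 T cells held it at 20.3, 16.5, 25.8 and 30.2 CPM with no such split, with a UMI in 15.9% of cells, and 10.8% of myeloid cells had one. The 14 Il7r cells had a median of 5859 UMIs, and 4 of them were among the 8 cells with markers of other types. Of these 14, 3 held Gzma (371 CPM in sum) and 1 held Eomes, against 28 and 14 of the 36 other Adar1-null NK cells (4795 CPM of Gzma) and 35 and 28 of the 52 control NK cells (4474 CPM). Tmem176b was in 7 of the 14 and 4 of the 36, Rora in 8 and 9, and Klra4 in 0 and 16. Gata3, Tcf7 and Kit were in 4, 5 and 2 of the 14 and in 14, 14 and 8 of the 36, shares that were no larger. At least 1 Klra gene was in 5 of the 14 and 27 of the 36, so these genes give no single identity to the 14 cells. All 14 held Tyrobp and Fcer1g and none held Cd3e.

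The response of NK cells differed from that of CD8 T cells for few genes. The test of the difference itself (edgeR, cell type by genotype with the library as a block) passed for 42 of 7801 genes, 0.538%. It passed for 18 without the 8 cells and the CD8 T cells over the same limits. For Gzma, NK cells held 2646 and 3869 CPM in Adar1-null and 4570 and 4185 in control, while CD8 T cells held 51.2 and 108 against 18.2 and 44.6. Few CD8 T cells set these values: the median Gzma count was 0 in each library, and the highest cell held 27, 186, 15 and 46 UMIs in S1 to S4. Among NK cells, the 14 Il7r cells held Gzma at 371 CPM, the 36 other Adar1-null cells at 4795 and the 52 control cells at 4474. The log2 difference of the responses was -1.84 (edgeR adjusted p = 1.0e-07). It lost its call without S2 (-1.62, adjusted p = 0.184) and without S3 (-1.10, adjusted p = 0.213). For Klrg1 the difference of responses was -2.51 (edgeR adjusted p = 0.027), which lost its call without S1, S2, S3 or S4 (-2.42, -2.63, -2.49 and -2.52, with adjusted p of 0.349, 0.267, 0.676 and 0.456), and for S100a6 it was -1.23 (edgeR adjusted p = 0.0057), lost without S1, S2 or S4 (-1.41, -1.04 and -0.87, with adjusted p of 0.179, 0.652 and 0.747). Each of these 3 genes also passed without the 8 cells, and none of them with DESeq2 (adjusted p = 0.0857, 0.852 and 0.97). The CD8 T values of S100a6 were 1119, 982, 1540 and 1004 CPM in S1 to S4, so there the groups overlapped.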

How the data were processed

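The authors deposited 1 matrix of whole-number UMI counts for all 4 libraries, not normalized, with 8838 barcodes and 27998 genes. The submitters' processing notes name Cell Ranger, Seurat 2.2.0 and the genome build mm10. No source used here gives the Cell Ranger version, the annotation or a filter on cells. Barcode suffixes name the library and its group but no replicate number. The lowest UMI total was 3961. A minimum of 500 genes and a maximum of 10% mitochondrial UMIs per cell removed 161 barcodes; Scrublet (scanpy 1.11.5) scores over 0.1 were left out as an alternative only. Free RNA in droplets was not corrected for.

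Counts were summed per library and cell type, since cells are not replicates, and compared with edgeR 4.0.16 (R 4.3.3; TMM, default filter on low counts, robust quasi-likelihood fit, Benjamini-Hochberg adjustment over all genes tested at 0.05). NK and CD8 T sums of a library, and the test of their difference in response, had the library as a block. Genes called separated have both libraries of a group on the same side of both of the other. Alternatives were DESeq2 1.42.0, no TMM, other filters, each library left out, stricter rules, and 13 cells per library. Scripts were tested on simulated counts.

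The members, gene lists and tests were chosen with earlier results of these data known. Named are up to 10 called genes per direction, or the 5 first by p among separated genes where fewer than 5 were called; for NK against CD8 T, the 15 largest folds per direction on the same side in all libraries; and the leading or called members of each gene list. Not every gene under this rule is printed. Promoters are from RefSeq (GRCm38.p6), where Gzma, Gzmc, Ctla2a and S100a6 matched; positions are from GENCODE M21, on the same build.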

Additional observations from a re-analysis of the deposited data

Results flagged for a closer look

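For 21 of the named genes, the response of NK cells to the tumour genotype differed from that of CD8 T cells in the same libraries by a test of the difference itself (edgeR, cell type by genotype, adjusted p under 0.05). Values are log2 responses of NK cells minus those of CD8 T cells. No one of the 21 kept its call in every setting, and DESeq2 called 8 genes in all.

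A lower response in NK cells was found for 4 of 14 tested genes of the NK marker list (Klra8, Klra4, Gzma and Tyrobp), for Klrg1 and for Car2, a carbonic anhydrase gene. Over all genes tested, 15 of 7801 were called lower. DESeq2 called none of these 4 marker genes, nor Klrg1 or Car2. The differences were -5.17 for Klra8, -4.13 for Klra4, -2.51 for Klrg1, -1.84 for Gzma, -1.19 for Tyrobp and -3.42 for Car2. CD8 T cells held Klra8, Klra4 and Car2 at no more than 5.16, 5.16 and 8.11 CPM, so few molecules set their side of the difference. For Gzma, few CD8 T cells set it. On the NK side, Gzma was at 371 CPM in the 14 Il7r cells and 4795 in the 36 other Adar1-null cells, against 4474 in control. In a further fit, the 8 cells that carry markers of other types were left out, with the CD8 T cells over the same limits. The values were then -6.78, -4.01, -2.68, -2.54, -1.06 and -3.32, and Tyrobp no longer passed (edgeR adjusted p = 0.0947). All values without the 8 cells in this section also leave out those CD8 T cells. Nmi, at -2.27, and S100a6, at -1.23, stood at -2.62 and -1.23 without the 8 cells and passed both ways.

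Genes with a higher response in NK cells included Il7r, at 10.68, a fitted value that is no bound because both control NK libraries held no Il7r UMI, and 9.80 without the 8 cells. Tnfrsf18 stood at 1.56 (1.57 without the 8 cells) and Slc16a3 at 2.38 (2.66), and both passed both ways. Ccr7, at 3.09, and Tyms, at 1.74, were at 2.87 and 1.73 without the 8 cells and no longer passed (edgeR adjusted p = 0.243 and 0.0739).

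Genes of macrophages, ferritin and MHC class II had other values without the 8 cells and those CD8 T cells. C1qa was at 2.35, Lgmn at 3.03, Ccl9 at 3.24, Fth1 at 1.34 and Ftl1 at 1.0. Without the 8 cells these were 1.61, 1.81, 2.21, 0.50 and 0.74, and none passed. Ifitm3, H2-Ab1 and Cd74, at -1.77, -2.85 and -1.70, turned to 1.25, 0.15 and 1.52 without the 8 cells, and of these 3 only Cd74 still passed (edgeR adjusted p = 0.0446). C1qa, H2-Ab1 and Cd74 are among the genes by which the 8 cells were chosen, so their values without these cells are no test.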

How the results depend on the processing

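NK cells number 13 to 39 per library, so single cells weigh heavily, and 2 libraries per group give the fit few degrees of freedom. The 10 genes called between genotypes became 3 with DESeq2, 20 with no filter on low counts, 21 with at least 10 UMIs in at least 2 libraries, 4 with a receptor sum of 3 or more, 6 without doublet scores over 0.1, 3 with equal cell numbers (0 of them shared), and 14 to 39 with 1 library left out. The 658 genes called between NK and CD8 T cells became 392 with DESeq2 and 387 to 693 with 1 library left out, and the 42 called in the difference of responses became 8 with DESeq2, 18 without the 8 cells and 10 to 24 with 1 library left out. The log2 ratio of NK shares of 0.28 lay between -0.77 and 1.32 with 1 library left out (-0.34 without S2) and turned to -0.38 over NK and T cells. The type I interferon median of 0.13 lay between -0.30 and 0.55 with 1 library left out, the lowest without S2, and the cytotoxic median of -0.47 between -0.99 and -0.26. The differences of responses of Ifitm3, H2-Ab1 and Cd74 turned to 1.25, 0.15 and 1.52 without the 8 cells and the CD8 T cells over the same limits. This alternative was chosen after seeing the data, in part by H2-Ab1 and Cd74 themselves. Over the alternatives, 948 of 1098 values for named genes between NK and CD8 T cells kept direction and call, 441 of 506 between genotypes, and 66 of 147 for the difference of responses; no named gene reversed in the first or the second comparison. Without TMM the median of all genes between genotypes was 0.11. With 1 library of a group left out, the lone one is assumed to vary like the others. The causes were not tested. No paired analysis was possible because the library names carry no replicate number.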

Other observations

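Gene groups not described above had these values in NK cells between genotypes, and of their members only Gzmc, Ctla2a and Klrg1, named above, passed the test. The medians of the log2 difference were 0.24 for 10 tested trafficking and adhesion receptors, -0.07 for 4 cytokine receptors, -0.14 for 7 genes of type 1 innate lymphoid cells and residency, 0.26 for 8 genes of early and -0.14 for 6 genes of late NK maturation, 0.23 for 9 activation genes, 0.31 for 10 interferon gamma-induced genes and 0.77 for 4 TGF-beta response genes, against 0.01 over all genes. Without the 8 cells that carry markers of other types, the TGF-beta median was 0.22 (3 tested), that of trafficking receptors 0.09, of the type 1 innate lymphoid list -0.08, of late maturation -0.05 and of activation 0.37.

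Against CD8 T cells, 2 of 15 cytokine receptor genes were higher in NK cells and 1 lower, where 4.68% of all genes tested were higher and 3.76% lower. Ifngr1, a chain of the interferon gamma receptor, was higher at 0.90 ± 0.15 (edgeR adjusted p = 4.25e-06). Of 19 activation genes 2 were higher and 5 lower, the latter with Batf (-1.27) and Nr4a2 (-0.85). Neither of the 2 higher genes kept its call in every setting. The ILC1 list had 4 genes higher, among them Rgs1 (1.26) and Tmem176a (2.36), and 2 lower, of 12 tested. Of 6 TGF-beta response genes 1, Rgs16, was lower (-1.68), and of 22 interferon gamma-induced genes 1 was higher, Cd274, a call that was lost without S2, with DESeq2 and without the 8 cells.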
